A study of Homo sapiens with 11 samples.

Results

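The neuronal RNA-binding protein genes ELAVL2, ELAVL3, ELAVL4, CELF3, CELF4, CELF5, NOVA1, NOVA2, RBFOX1 and RBFOX2 were followed over 11 expression arrays of IMR32, a human neuroblastoma cell line with MYCN amplification. The members were the 10 of 19775 annotated genes whose current or former symbol was on this list, and they were read by 35 of the 41097 probe sets that carry a single gene symbol. CELF4 had 7 probe sets, ELAVL4, NOVA2 and RBFOX2 had 4 each, ELAVL3, CELF5, NOVA1 and RBFOX1 had 3 each, and ELAVL2 and CELF3 had 2 each. The study asked which transcripts follow MYCN in neuroblastoma cells. IMR32 cells without virus were sampled at 0 hours on 2 arrays. Cells transduced with pLenti particles carrying the control hairpin SHC002 were sampled at 24, 48 and 72 hours, on 1 array at each hour. Cells transduced with pLenti particles carrying a hairpin directed at MYCN were sampled at the same hours on 2 arrays each, labelled A and B. All cells came from 1 line grown in DMEM with fetal calf serum, and 1 MYCN hairpin was used. The labels do not say whether arrays that share a group came from separate transductions, so p-values reflect how these arrays scatter, and that scatter may be technical.

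Neuronal ELAVL proteins bind AU-rich and U-rich stretches in mRNA and are known for stabilising transcripts and raising their translation as neurons differentiate. CELF proteins bind GU-rich elements, NOVA proteins bind clusters of short motifs built around CA and RBFOX proteins bind UGCAUG, and all 3 families are known for setting the inclusion of alternative exons in neurons. ELAVL2, ELAVL3 and ELAVL4, also called HuB, HuC and HuD, are neuronal antigens of paraneoplastic disease, as are NOVA1 and NOVA2, and HuD is known to be expressed in neuroblastoma. RBFOX1 is enriched in neurons and muscle, while RBFOX2 is expressed in many tissues.

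MYCN is known to bind DNA with its partner MAX at the E-box CACGTG and at the related hexamer CACGCG, so the promoters of the members were searched for both hexamers on both strands. The RefSeq promoter table (GRCh38.p14, 250 bases before to 50 bases after each start) held 25 starts of 8 members, and ELAVL3 and RBFOX2 were not among them. CACGTG was present in 2 of these 25 promoters, 1 of ELAVL4 and 1 of RBFOX1, and in 7.26% of 35116 promoters of all genes. CACGCG was present in 7 of the 25, all of ELAVL2 or RBFOX1, and in 11.4% of all promoters. These 2 genes have several starts each, 6 for ELAVL2 and 5 for RBFOX1, so the starts are not separate cases. By gene, CACGCG was present in 2 of the 8 members against 13.5% of all genes, and CACGTG in 2 of the 8 against 8.77%. The 250 bases upstream of the starts of CELF3, CELF4 and CELF5 are shown because these 3 genes rose together on the arrays labelled shMYCN. Those of the starts listed first for ELAVL2 and RBFOX1 are shown because they hold matches and their genes were not called higher. The sequences were thus picked by outcome, and a link between hexamer and signal was not tested. Among members not shown, ELAVL4 was called higher on 3 of 4 probe sets at 72 hours and held CACGTG. NOVA2, not called against control virus, and NOVA1, too dim to be tested, held neither hexamer. Capitals mark CACGCG or its reverse complement CGCGTG, and no capitals means that neither hexamer was present.
CELF3 (chr1:151716804-151717053, minus strand): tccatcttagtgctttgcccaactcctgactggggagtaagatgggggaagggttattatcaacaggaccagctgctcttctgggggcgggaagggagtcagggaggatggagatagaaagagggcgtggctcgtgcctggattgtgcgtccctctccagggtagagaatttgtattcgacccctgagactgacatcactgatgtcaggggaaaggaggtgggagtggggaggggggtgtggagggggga
CELF4 (chr18:37485793-37486042, minus strand): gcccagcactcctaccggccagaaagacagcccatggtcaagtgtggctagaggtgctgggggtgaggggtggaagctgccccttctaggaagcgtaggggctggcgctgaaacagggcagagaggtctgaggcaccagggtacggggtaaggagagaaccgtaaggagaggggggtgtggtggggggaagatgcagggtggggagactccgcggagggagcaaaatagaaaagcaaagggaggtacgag
CELF5 (chr19:3224411-3224660, plus strand): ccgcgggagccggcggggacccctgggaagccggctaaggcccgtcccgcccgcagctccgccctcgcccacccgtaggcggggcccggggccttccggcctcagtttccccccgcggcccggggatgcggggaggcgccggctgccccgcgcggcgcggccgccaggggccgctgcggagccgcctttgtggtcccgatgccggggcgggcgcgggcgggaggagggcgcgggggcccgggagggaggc
ELAVL2 (chr9:23826241-23826490, minus strand): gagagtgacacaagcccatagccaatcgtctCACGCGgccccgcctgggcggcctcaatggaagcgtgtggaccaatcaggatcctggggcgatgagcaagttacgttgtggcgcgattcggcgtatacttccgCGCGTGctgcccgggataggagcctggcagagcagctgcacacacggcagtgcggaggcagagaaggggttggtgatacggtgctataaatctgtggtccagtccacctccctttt
RBFOX1 (chr16:6018774-6019023, plus strand): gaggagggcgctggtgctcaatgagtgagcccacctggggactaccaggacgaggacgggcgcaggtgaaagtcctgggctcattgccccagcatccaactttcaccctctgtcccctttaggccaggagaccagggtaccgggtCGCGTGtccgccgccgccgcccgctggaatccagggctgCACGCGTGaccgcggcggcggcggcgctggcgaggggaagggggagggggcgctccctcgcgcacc
The CELF5 sequence was 84.0% G and C, against 57.2% for CELF3, 61.6% for CELF4, 60.4% for ELAVL2 and 70.8% for RBFOX1. With the 50 bases after the start included, the shares were 84.7% for CELF5, 58.7% for CELF3, 61.7% for CELF4, 58.0% for ELAVL2 and 69.3% for RBFOX1. The median over all promoters in that longer window was 58.7%. The matches began 219 and 116 bases before the ELAVL2 start, and 105, 66 and 64 bases before the RBFOX1 start, where the last pair overlapped. These matches describe letters in these windows and are no measure of binding.

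Each array had a trimmed mean of 100.01 signal units and a median of 14.9 to 16.7. The MYCN mRNA itself was not called lower by limma on any of its 10 probe sets at any hour or over the hours together, with a leading probe set at -0.02 ± 0.09 log2 (SE, adjusted p = 0.875), so the arrays are named here by their labels. Of 7 measured sympathetic neuroblastoma markers, 6 lay above the dim filter, with summed signals of 6273.9 to 7344.1 over all arrays, while TH lay below it. Of the 6, limma called DBH lower (-0.47 log2) and CHGA higher (0.32) over the hours together, and 4 were not called. Schwann and glial markers summed to 47 or less and leukocyte markers to 44.9 or less on every array. Mesenchymal markers summed to 1192.6 to 1221.4 without virus, 1229.3 to 1427 with control virus and 965.4 to 1229 on the arrays labelled shMYCN, and of 6 measured genes 4 lay above the dim filter, of which SNAI2, YAP1 and FN1 were called lower over the hours together (-1.18, -0.89 and -0.28 log2) and COL1A1 was called higher (0.67); 14.1% of all genes were called lower and 19.9% higher, and the part of these markers in the results that follow was not tested. By probe set, SNAI2 was called lower on 1 of 1, YAP1 on 3 of 3 and FN1 on 2 of 4, and COL1A1 was called higher on 2 of 4. In RNA from whole cultures, fewer cells of a type and less RNA per cell cannot be told apart.

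On the arrays labelled shMYCN, CELF3, CELF4, CELF5, RBFOX2, ELAVL3 and ELAVL4 were each called higher than control virus on 1 or more probe sets at 48 and at 72 hours. The probe sets of a gene were split in part. At 72 hours ELAVL3 was called on 1 of 3. ELAVL4 was called on 3 of 4 at 72 hours, not on its leading one, and on 1 of 4 at 48 hours. Of the 35 probe sets, 28 of 9 genes passed the filter on dim probe sets, which was set on the mean over all 11 arrays; all 3 probe sets of NOVA1 fell below it, as did 2 of CELF4 and 1 each of CELF3 and NOVA2. At 72 hours 15 of these 28 were called higher than control virus and 0 lower (limma on log2 signal, Benjamini-Hochberg adjusted p under 0.05), against 26% of all 24654 probe sets tested that were called, 13.7% higher and 12.3% lower. The 15 belonged to 6 genes, and the median difference of the 28 was 0.64 log2, against 0.03 over all probe sets. At 48 hours 8 of the 28 were called higher and 0 lower, against 6.19% and 5.84% of all, and each of the 8 was also called higher at 72 hours. At 24 hours 0 of the 28 were called in limma, where 0.499% of all were called in either direction and 0.073% higher. The smallest limma adjusted p among the 28 was 0.108. A single control array stands at each hour, and it was assumed to vary as much as the pairs of arrays do.

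Over the 3 hours together, 13 of the 28 probe sets were called higher than control virus and 1 lower in limma, where 30.1% of all probe sets were called, 16.6% higher and 13.5% lower. With control virus 72 h left out, 24 and 48 hours alone gave 6 higher and 1 lower, and 51.4% of all calls were then higher. In the main fit 55.1% of all calls in this comparison were higher, and 43.0% when the arrays were scaled to a common median. At 72 hours these shares were 52.7% and 36.7%. The members' counts under median scaling were 13 higher and 1 lower over the hours together, and 14 higher and 1 lower at 72 hours. For the alternative fits in this paragraph, the share of all probe sets called is not given beside the members' counts. Those counts show only how the members' calls moved. Control virus against no virus gave 0 calls among the 28, with 0 at an unadjusted p under 0.05 and differences between -0.39 and 0.33 log2, where limma called 0.0122% of all probe sets. Against the arrays without virus, the arrays labelled shMYCN were called higher at 11 of the 28 and lower at 1, where 23.3% of all were called, 12.6% higher and 10.7% lower; leaving out 1 of the arrays without virus left 7 or 6 calls. That comparison shares its shMYCN arrays with those against control virus. All 6 arrays labelled shMYCN lay above the control virus array of their hour at 6 of the 28 and below it at 0, against 17.3% and 14.3% of all probe sets. How often all 6 lay above all 5 arrays without virus or with control virus was not counted over all probe sets. Both 72-hour arrays labelled shMYCN lay above all 5 arrays without virus or with control virus at 19 of the 28 and below all 5 at 0, against 30.6% and 24.2% of all probe sets. Of the 19, RBFOX2 213898_at passed the dim filter only with the arrays labelled shMYCN counted in; with the filter set on the 5 reference arrays, an alternative chosen after seeing the data, 27 members were tested and 18 lay above and 0 below, against 29.7% and 24.7% of all, and 15 were again called higher at 72 hours.

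**Figure D1:**
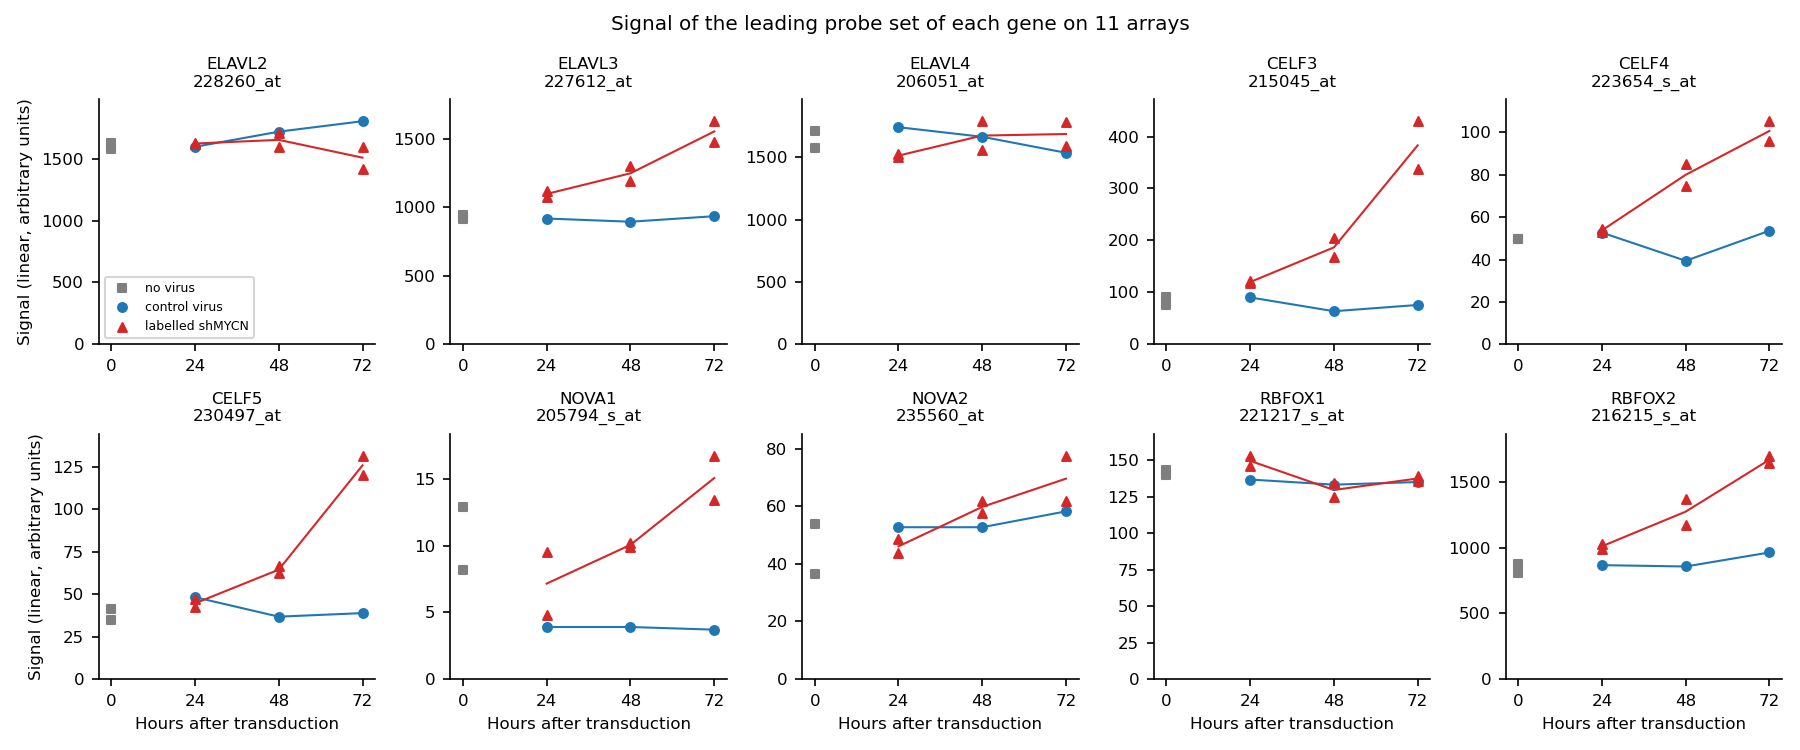
Linear signal of the leading (brightest on average) probe set of each of the 10 genes against hours after transduction, 1 point per array, for cells without virus at 0 hours, with control virus and labelled shMYCN; lines join the values or pair means by hour. CELF3, CELF4, CELF5, ELAVL3 and RBFOX2 separate from control virus by 72 hours, while ELAVL2, NOVA2 and RBFOX1 overlap it for at least part of the course, as does ELAVL4 on this probe set. Each panel has its own axis from 0, and levels are not comparable between panels.

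The ELAVL genes code for the neuronal Hu proteins. ELAVL2 was bright and did not rise. Its leading probe set 228260_at read 1631.8 and 1581.8 without virus, 1597.6, 1720.2 and 1805.0 with control virus at 24, 48 and 72 hours, and 1599.2 and 1420.5 on the arrays labelled shMYCN at 72 hours. One of the latter pair lay inside the range of the other arrays and the other was the lowest of the 11. The difference from control virus at 72 hours was -0.26 ± 0.11 log2 (SE, limma adjusted p = 0.0976), and it was called lower with the arrays scaled to a common median (-0.38, adjusted p = 0.025). The other ELAVL2 probe set, 208427_s_at, gave -0.24 ± 0.15 at 72 hours (adjusted p = 0.28), with 186.9 and 184.0 against 221.5 on the control virus array.

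ELAVL3, the HuC gene, was called higher at 48 and 72 hours on 1 of its 3 probe sets. Probe set 227612_at read 911.6 and 945.4 without virus and 917.2, 893.8 and 934.2 with control virus. On the arrays labelled shMYCN it read 1117.7 and 1075.3 at 24 hours, 1191.0 and 1303.4 at 48 hours, and 1477.5 and 1627.1 at 72 hours. All 6 of these arrays lay above all 5 others. The difference from control virus was 0.25 ± 0.11 log2 at 24 hours (limma adjusted p = 0.416), 0.47 ± 0.11 at 48 hours (adjusted p = 0.0149) and 0.72 ± 0.11 at 72 hours (adjusted p = 4.81e-04), a 1.65-fold higher signal. The 48-hour call was lost in limma without the variance trend (adjusted p = 0.0556). Probe set 1555602_a_at read 511.6 and 611.4 at 72 hours against 374.1, a difference of 0.56 ± 0.21 that was not called (adjusted p = 0.0751). It was called at 72 hours against 24 hours within the arrays labelled shMYCN (0.73 ± 0.17, adjusted p = 0.00883), with adjusted p from 0.0512 to 0.0902 when shMYCN 24 h A, 24 h B or 72 h B was left out. The 48-hour pair of this probe set read 306.1 and 504.9, and without either of them the 72-hour difference was called (adjusted p = 0.0014 in both cases). The dimmest ELAVL3 probe set, 206338_at, read 12.4 to 29.9 over all arrays and was not called.

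ELAVL4 codes for HuD, and its 4 probe sets did not move alike. Probe set 206051_at read 1711.7 and 1577.2 without virus, 1534.8 with control virus at 72 hours, and 1778.2 and 1592.5 on the arrays labelled shMYCN at 72 hours, which overlapped the others (0.13 ± 0.12 log2, limma adjusted p = 0.455). Probe set 238073_at read 1767.1 and 1830.0 at 72 hours, above all 5 arrays without virus or with control virus (1472.2 to 1628.1). Its difference of 0.29 ± 0.10 was called at an adjusted p of 0.0478, and the call was lost in 9 of 19 alternatives, among them median scaling (0.16, adjusted p = 0.274) and the removal of either no virus array, either shMYCN array of 24 hours or either of 72 hours (adjusted p 0.075 to 0.141). The other pair of probe sets was called with larger differences. Probe set 241424_at read 113.9 to 128.1 on the 5 arrays without virus or with control virus, 116.9 and 121.8 at 24 hours, 163.2 and 155.7 at 48 hours, and 210.1 and 209.0 at 72 hours. The 24-hour pair lay inside the range of the 5 and the later pairs lay above it, with 0.80 ± 0.12 log2 at 72 hours (adjusted p = 5.68e-04), or 1.74-fold. Its call at 48 hours (0.43 ± 0.12, adjusted p = 0.0386) was lost on leaving out any array of no virus, shMYCN 24 hours or shMYCN 72 hours (adjusted p 0.0681 to 0.0726). Probe set 234904_x_at read 73.4 to 93.0 on the 5, 55.4 and 76.8 at 24 hours, and 145.8 and 138.5 at 72 hours (0.82 ± 0.18, adjusted p = 0.00665). The suffix _x_at marks a probe set that may also match other transcripts. By mean signal over the 11 arrays 206051_at and 238073_at stood at percentiles 98.1 and 98.1 of all probe sets and 241424_at and 234904_x_at at 76.2 and 70.5, and the part of brightness in the size of the differences was not tested.

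**Figure D2:**
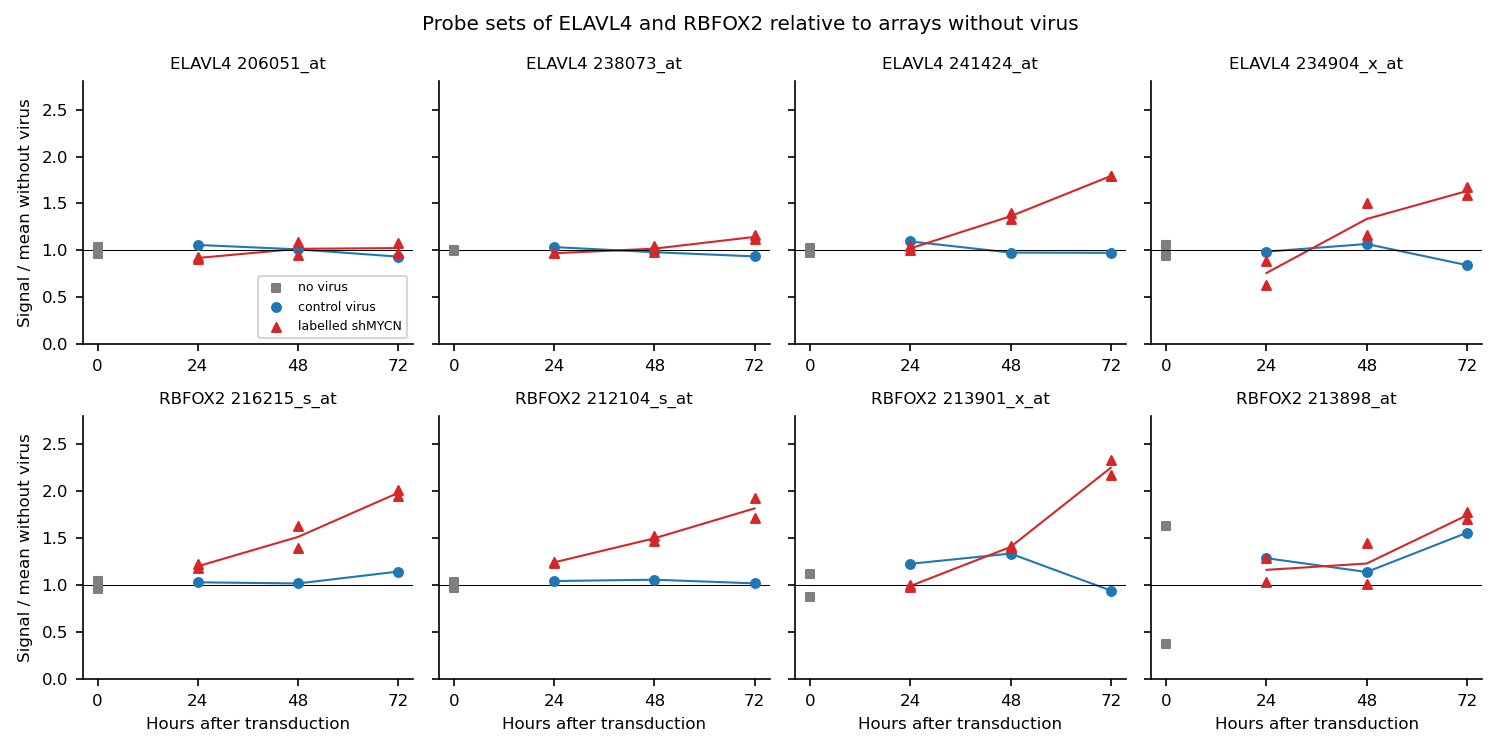
Signal of each of the 4 probe sets of ELAVL4 (top) and RBFOX2 (bottom), divided by its mean over the 2 arrays without virus, against hours after transduction; 1 point per array, with a line at 1. The ELAVL4 probe sets 241424_at and 234904_x_at rise on the arrays labelled shMYCN while 206051_at lies near 1, and the 3 brighter RBFOX2 probe sets rise by 72 hours.

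The CELF genes code for splicing and stability factors with 3 RNA recognition motifs, and CELF3, CELF4 and CELF5 are the members found mainly in brain. CELF3 had the largest log2 difference of the 28 probe sets at 72 hours on signal plus 16; on signal plus 1 the difference of CELF4 223653_x_at was larger (3.51 against 2.31). Its probe set 215045_at read 74.9 and 91.6 without virus and 90.2, 63.6 and 75.7 with control virus. On the arrays labelled shMYCN it read 121.8 and 117.8 at 24 hours, 205.4 and 167.8 at 48 hours, and 336.7 and 429.6 at 72 hours. All 6 lay above all 5 others, and the pairs at successive hours did not overlap. The difference from control virus was 0.35 ± 0.17 log2 at 24 hours (limma adjusted p = 0.505), 1.34 ± 0.17 at 48 hours (adjusted p = 6.94e-04) and 2.11 ± 0.17 at 72 hours (adjusted p = 1.04e-05), or 4.32-fold. The other fold changes were also taken on signal plus 16, which understates the change of dim probe sets. The dim probe set 206817_x_at read 1.6 to 10.0 on 9 arrays and 37.5 and 49.0 at 72 hours on the arrays labelled shMYCN; in the limma fit without the dim filter the 72-hour difference was 1.27 ± 0.24 (adjusted p = 0.0106).

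CELF4 was called higher at 72 hours on all 5 of its probe sets above the dim filter, with differences of 0.74 to 1.66 log2. Its probe set 223654_s_at read 39.4 to 53.6 on the 5 arrays without virus or with control virus, 53.0 and 54.5 at 24 hours, 74.9 and 85.1 at 48 hours, and 96.1 and 105.3 at 72 hours. The 48-hour and 72-hour pairs lay above all other arrays, and limma gave 0.79 ± 0.15 log2 for 48 hours (adjusted p = 0.00649) and 0.74 ± 0.15 for 72 hours (adjusted p = 0.00359). Probe set 238966_at read 21.8 to 34.5 on the 5, 47.8 and 57.7 at 48 hours and 79.5 and 103.7 at 72 hours (1.29 ± 0.20, adjusted p = 6.28e-04), or 2.45-fold. The other 3 read close to the filter. Probe set 223653_x_at read 2.9 to 18.5 on the 5 and 48.0 and 39.4 at 72 hours (1.66 ± 0.22, adjusted p = 2.77e-04), where the control virus array of that hour held the lowest value. Probe set 231220_at read 10.8 to 17.5 on the 5 and 40.3 and 39.7 at 72 hours (0.76 ± 0.19, adjusted p = 0.0128; 0.0528 without shMYCN 72 h A). Probe set 243666_at was the only one of the 5 that lay above the 5 arrays at 24 hours, with 33.6 and 25.9 against 9.1 to 18.5, and it read 32.1 and 33.7 at 72 hours. Its 24-hour difference of 0.86 ± 0.20 was not called (adjusted p = 0.108) but was so without shMYCN 48 h A (adjusted p = 0.0471) or B (0.0461), and its 72-hour call (0.74 ± 0.20, adjusted p = 0.0171) was lost without shMYCN 72 h A (0.0552) or B (0.0693). The dim probe sets 243665_s_at and 232719_at read 3.2 to 16.2 and 0.6 to 3.0 over all arrays.

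CELF5 probe set 230497_at read 34.7 to 48.3 on the 5 arrays without virus or with control virus and 47.0 and 42.3 on the arrays labelled shMYCN at 24 hours. It then read 62.3 and 66.7 at 48 hours and 120.5 and 131.5 at 72 hours, so that the 24-hour pair overlapped the 5 and the later pairs did not. The difference from control virus was -0.09 ± 0.16 log2 at 24 hours (limma adjusted p = 0.903), 0.61 ± 0.16 at 48 hours (adjusted p = 0.0299) and 1.37 ± 0.16 at 72 hours (adjusted p = 1.01e-04), or 2.58-fold. The 48-hour call was just lost without shMYCN 72 h A (adjusted p = 0.0508) or B (0.0509). Probe set 232416_at read 17.8 to 25.1 on the 5 and 54.9 and 41.7 at 72 hours (0.77 ± 0.21, adjusted p = 0.0185; 0.106 without shMYCN 72 h A). Probe set 231744_at read 15.7 or less on the 5 and 19.6 and 30.6 at 72 hours, and it was not called against control virus (0.56 ± 0.22, adjusted p = 0.0881).

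**Figure D3:**
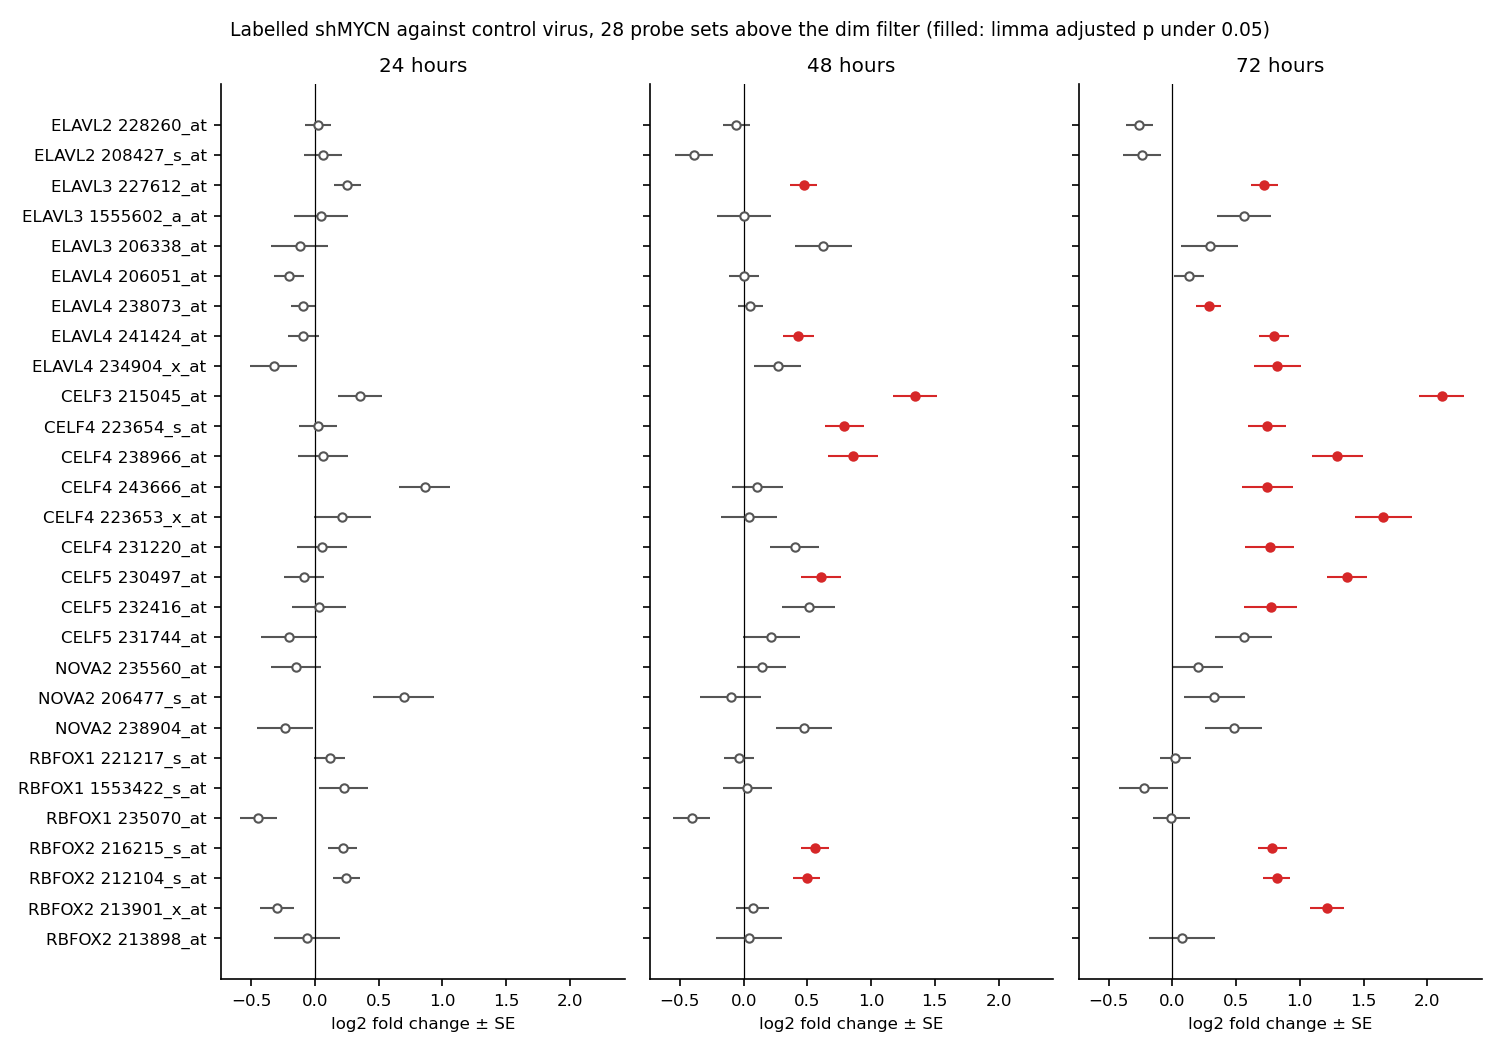
Difference between arrays labelled shMYCN and the control virus array of the same hour, as log2 fold change with its standard error, for the 28 probe sets above the dim filter at 24, 48 and 72 hours; filled points have a limma adjusted p under 0.05. No point is filled at 24 hours, 8 are at 48 hours and 15 at 72 hours, all to the right of 0, and CELF3 reaches 2.11 at 72 hours.

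The NOVA genes code for the splicing factors of the paraneoplastic Ri antigen, and NOVA2 was not called higher or lower than control virus on its 3 probe sets above the dim filter. NOVA1 lay below that filter on all 3 probe sets, with signals of 3.7 to 16.7 on 205794_s_at, 0.3 to 5.1 on 207437_at and 0.3 to 6.0 on 231614_at. On 205794_s_at the arrays without virus read 8.2 and 12.9, those with control virus 3.9, 3.9 and 3.7, and those labelled shMYCN 13.4 and 16.7 at 72 hours. The level with control virus was thus the lowest of the 3 conditions on this dim probe set. In the limma fit without the dim filter the mean difference over the 3 hours was 0.42 log2 against control virus, past the threshold in that fit (adjusted p = 0.0361), and 0.003 against no virus. NOVA2 probe set 235560_at read 53.7 and 36.4 without virus, 52.7, 52.7 and 58.2 with control virus, and 61.7 and 77.4 at 72 hours on the arrays labelled shMYCN. The 72-hour pair lay above the 5 by a difference of 0.20 ± 0.20 log2, within the error (adjusted p = 0.504). Probe sets 206477_s_at and 238904_at gave 0.33 ± 0.24 and 0.48 ± 0.22 at 72 hours (adjusted p = 0.352 and 0.137), and the dim 206476_s_at read 0.7 to 6.9.

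The RBFOX genes differed from each other. RBFOX1 was not called at any single hour on its 3 probe sets. Its leading probe set 221217_s_at read 143.3 and 139.8 without virus, 136.7, 133.2 and 135.0 with control virus, and 124.6 to 152.8 on the 6 arrays labelled shMYCN, which enclosed the others, and its mean difference was 0.03 log2 (limma adjusted p = 0.752). Probe set 1553422_s_at read 66.2 to 102.5 over all arrays. Probe set 235070_at read 58.6 to 75.0 on the 5 arrays without virus or with control virus, 51.4 and 50.3 at 24 hours, 39.5 and 41.0 at 48 hours, and 65.0 and 67.6 at 72 hours. The 24-hour and 48-hour pairs lay below the 5 and the 72-hour pair within them. This was the 1 probe set called lower over the 3 hours together (-0.29 ± 0.08, adjusted p = 0.0237), and the call was lost without control virus 24 h (-0.21, adjusted p = 0.152), control virus 48 h (-0.23, adjusted p = 0.148), shMYCN 72 h A (adjusted p = 0.0539) or shMYCN 24 h B (adjusted p = 0.052).

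RBFOX2 rose on its 3 brighter probe sets. Probe set 216215_s_at read 876.3 and 806.6 without virus and 867.8, 857.5 and 964.5 with control virus. On the arrays labelled shMYCN it read 1029.1 and 994.0 at 24 hours, 1177.0 and 1373.5 at 48 hours, and 1698.8 and 1642.5 at 72 hours. All 6 lay above the 5, with 0.78 ± 0.11 log2 at 72 hours (limma adjusted p = 4.48e-04), or 1.72-fold. Probe set 212104_s_at read 697.9 to 764.4 on the 5, 899.7 and 895.0 at 24 hours, 1065.8 and 1099.6 at 48 hours, and 1389.1 and 1236.7 at 72 hours, again with no overlap (0.82 ± 0.10 at 72 hours, adjusted p = 2.04e-04). Probe set 213901_x_at took another course, with 299.6 to 455.3 on the 5, 341.6 and 333.7 at 24 hours and 793.6 and 739.8 at 72 hours. Its 24-hour pair lay inside the range of the 5 and below the control virus array of 24 hours (418.2), while its 72-hour difference was 1.21 ± 0.13 (adjusted p = 6.64e-05), or 2.32-fold. Its mean over the hours was 0.33 (adjusted p = 0.00669) and turned to -0.11 without the control virus array of 72 hours (adjusted p = 0.489). The dim probe set 213898_at read 3.3 to 15.8 over all arrays and was not called.

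The mean over the 3 hours was called higher for ELAVL3 227612_at (0.48 ± 0.06 log2, limma adjusted p = 1.46e-04), CELF3 215045_at (1.27 ± 0.10, adjusted p = 4.66e-06), CELF4 223654_s_at and 243666_at (0.52 ± 0.09 and 0.57), and RBFOX2 216215_s_at and 212104_s_at (0.52 each). These 6 kept the call in every alternative run that tested them, including the removal of each array in turn. CELF4 243666_at and RBFOX2 212104_s_at were not in the run on the leading probe set of each gene. CELF4 243666_at was also not in the run that left out a larger share of dim probe sets. The calls of ELAVL4 241424_at (0.38), CELF4 238966_at (0.74), 223653_x_at (0.64) and 231220_at (0.41), CELF5 230497_at (0.63) and 232416_at (0.44) were lost without the control virus array of 72 hours, where the values were 0.17, 0.46, 0.13, 0.23, 0.26 and 0.27 with adjusted p from 0.0548 to 0.657. The calls of CELF4 231220_at (adjusted p = 0.0521) and CELF5 232416_at (0.077) were also lost without the control virus array of 48 hours.

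Whether the difference from control virus changed between 24 and 72 hours was tested as an interaction. It was larger at 72 hours at 8 of the 28 probe sets and smaller at 0 in limma, where 6.42% of all probe sets were called, 2.77% larger and 3.65% smaller; the members' median was 0.54 log2 against 0.007 over all. The 8 belonged to CELF3, CELF4, CELF5, ELAVL4 and RBFOX2. The change was 1.76 ± 0.24 log2 for CELF3 215045_at (adjusted p = 0.00298), 1.51 ± 0.19 for RBFOX2 213901_x_at (adjusted p = 0.0015) and 1.46 ± 0.22 for CELF5 230497_at (adjusted p = 0.00449). These 3 kept the call in every alternative run that tested them, and RBFOX2 213901_x_at was not in the run with 1 probe set per gene. Between 4 and 12 of the 28 were called on leaving out 1 array, with 4 without shMYCN 24 h A, 72 h A or 72 h B and 12 without shMYCN 48 h A or B. ELAVL3 227612_at (0.47, adjusted p = 0.0891) and RBFOX2 216215_s_at (0.57, adjusted p = 0.0597) were not called larger. Within the arrays labelled shMYCN, 17 of the 28 were higher at 72 than at 24 hours and 0 lower, where limma called 15.1% of all higher and 13.2% lower; without shMYCN 24 h B the count was 11. The 2 comparisons share the shMYCN arrays of 24 and 72 hours. NOVA2 238904_at (0.53, adjusted p = 0.0463) was also called there, and lost the call in 9 alternatives, among them quantile normalization, median scaling and the removal of either no virus array, either shMYCN array of 24 hours or shMYCN 72 h B, where it was 0.34 (adjusted p = 0.307).

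Over the 11 arrays, CELF3, CELF5 and RBFOX2 had the largest standard deviations among the members' leading probe sets (0.82, 0.53 and 0.38 log2). The profiles nearest to CELF3 among 12669 other genes, by root mean square difference of centred log2 signal, were those of PRCD (0.142), B3GALT2 (0.153) and PNRC1 (0.17), against a median of 0.784 over all candidates. For CELF5 they were TMEM151B (0.0841), CD200 (0.107) and LRIF1 (0.118), against a median of 0.517. For RBFOX2 they were FNDC5 (0.0406), PDE4A (0.0616) and TPP1 (0.0643), against a median of 0.373. The points share the same 11 arrays and their scaling, and the distances are a description.

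Among the other members of the 4 families, 1 of 5 measured genes was called higher over the 3 hours together and 0 lower on its leading probe set, where 34% of 12678 genes were called, 19.9% higher and 14.1% lower. CELF1, the widely expressed relative of the brain CELF genes, was the 1 called (0.25 ± 0.07 log2, limma adjusted p = 0.0146), and it was lost without the control virus array of 48 or of 72 hours. By probe set, CELF1 was called higher on 4 of 7 and ELAVL1 lower on 1 of 4, not the leading one. ELAVL1, the ubiquitous HuR gene, gave -0.12 (adjusted p = 0.144) and was called lower at 72 hours (-0.30 ± 0.10, adjusted p = 0.0481), a call lost in 8 alternatives, 6 of them the removal of 1 array. CELF2 gave 0.17 (adjusted p = 0.0925). CELF6 gave 0.29 (adjusted p = 0.0784) and was called higher at 72 hours (0.65 ± 0.20, adjusted p = 0.0319). That call was lost without shMYCN 72 h B, under median scaling, on signal plus 1 and without the dim filter. RBFOX3, which codes for the neuronal nuclear antigen NeuN, gave 0.27 on its leading probe set (adjusted p = 0.156), and 1 of its 3 probe sets was called higher (0.41). Against the arrays without virus the leading one was called higher (0.54 ± 0.15, adjusted p = 0.0241).

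Of 20 other splicing regulators, 17 were tested and 4 were called higher and 3 lower over the 3 hours together, or 23.5% and 17.6%, against 19.9% and 14.1% of all genes. Their median was -0.001 log2, against 0.03 over all genes. PTBP3, a paralog of the exon repressor PTBP1, was lower on all 5 of its probe sets, and its leading one read 253.3 to 297.8 on the 5 arrays without virus or with control virus, 157.0 and 166.2 at 24 hours, 88.7 and 84.4 at 48 hours, and 87.0 and 81.6 at 72 hours. All 6 arrays labelled shMYCN lay below the 5 (-1.23 ± 0.07, limma adjusted p = 3.9e-07). SRRM4, a neuronal activator of microexons, was higher on all 3 of its probe sets (0.49 ± 0.08 on the leading one, adjusted p = 6.02e-04). MBNL1 was called lower (-0.36 ± 0.07, adjusted p = 0.00184), and MBNL2 (0.41 ± 0.08, adjusted p = 0.00305) and RBM4 (0.43 ± 0.09, adjusted p = 0.00431) were called higher, the last pair not without the control virus array of 72 hours. By probe set, MBNL1 was called lower on 3 of 5 and MBNL2 higher on 2 of 4, with a lowest value of 0.03, while RBM4 had 1 tested. PTBP1 and PTBP2, whose proteins repress neuronal exons, gave -0.16 and -0.18 (adjusted p = 0.085 and 0.0899) on the leading probe sets. The other PTBP2 probe set was called lower (-0.48), and at 72 hours PTBP1 was called lower (-0.38 ± 0.11, adjusted p = 0.0301). The PTBP1 call was lost without shMYCN 72 h B, without the dim filter and without the variance trend. REST, the repressor of neuronal genes, gave 0.06 ± 0.10 (adjusted p = 0.703).

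**Figure D4:**
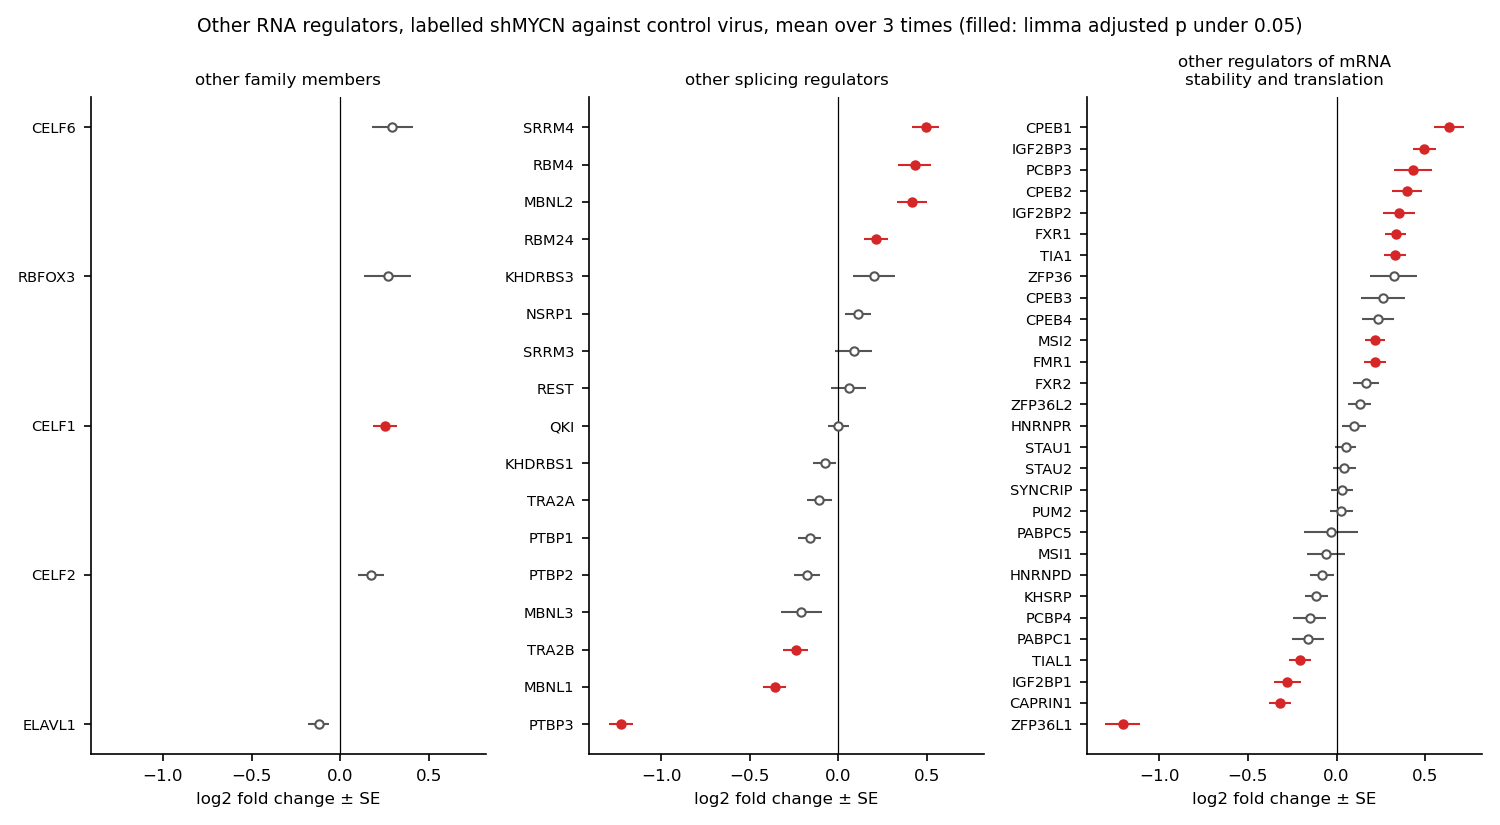
Mean difference over 24, 48 and 72 hours between arrays labelled shMYCN and control virus, as log2 fold change with its standard error, for the leading probe set of each measured gene of the other family members, the other splicing regulators and the other regulators of mRNA stability and translation; filled points have a limma adjusted p under 0.05. PTBP3 (-1.23) and ZFP36L1 (-1.21) lie farthest to the left.

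Of 30 other regulators of mRNA stability and translation, 29 were tested, and 9 were called higher and 4 lower, or 31% and 13.8% against 19.9% and 14.1% of all genes, with a median of 0.10 log2. ZFP36L1, which drives the decay of AU-rich mRNAs, was lower (-1.21 ± 0.10, limma adjusted p = 6.31e-06), and IGF2BP3 (0.50 ± 0.06, adjusted p = 1.38e-04), CPEB1 (0.63 ± 0.08, adjusted p = 2.14e-04) and FXR1 (0.33 ± 0.06, adjusted p = 0.00137) were higher. By probe set, ZFP36L1 was called on 2 of 2 and FXR1 on 6 of 6, but IGF2BP3 on 2 of 4 and CPEB1 on 1 of 2. Against no virus IGF2BP3 was not called (0.15, adjusted p = 0.149), while ZFP36L1 (-1.29), CPEB1 (0.63) and FXR1 (0.41) were. Of 15 mRNAs known to be bound by neuronal ELAVL proteins, 9 were tested, and 2 were called higher and 1 lower (22.2% and 11.1%), with a median of 0.06. GAP43, a growth cone protein whose mRNA HuD stabilises, was higher on its leading probe set (0.45 ± 0.08, adjusted p = 0.00134; lost without control virus 72 h) and gave 0.13 on its other one. CDKN1A was lower (-0.39 ± 0.08, adjusted p = 0.00362), BDNF was called higher at 0.36 ± 0.11 (adjusted p = 0.032, lost in 9 alternatives), and MAPT gave 0.16 (adjusted p = 0.225). By probe set, BDNF was called higher on 1 of 2 and MAPT on 2 of 5. Against no virus, GAP43 (0.21, adjusted p = 0.131), CDKN1A (-0.11, adjusted p = 0.442), BDNF (0.30, adjusted p = 0.117) and MAPT (0.23, adjusted p = 0.146) were not called. Of 18 mRNAs with exons known to be set by NOVA, RBFOX or CELF proteins, 12 were tested, and 4 were called higher and 1 lower (33.3% and 8.33%), with a median of 0.14. MEF2D (1.04 ± 0.21), NRXN3 (0.51 ± 0.10) and KCNMA1 (0.43 ± 0.12) were higher and ENAH was lower (-0.29 ± 0.06), with adjusted p from 0.00251 to 0.0176. By probe set, NRXN3 was called higher on 1 of 2 (the other gave 0.02) and ENAH lower on 3 of 5, with values up to 0.12. Against no virus NRXN3 (0.54), KCNMA1 (0.68) and ENAH (-0.33) were called. MEF2D probe sets ranged from 0.12 to 1.04. Its leading one read 11.2 and 45.2 without virus, gave 0.62 without control virus 72 h (adjusted p = 0.158), and was not called against no virus (0.65, adjusted p = 0.0811). The KCNMA1 call was lost without control virus 48 h or 72 h, and without the dim filter. These values are whole-transcript signals, and exon inclusion was not measured.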

How the data were processed

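Total RNA of IMR32 cells was hybridised to Affymetrix arrays, and the authors deposited linear signal intensity values for 54675 probe sets on 11 arrays, made with MAS5 in GCOS per the submitters' processing notes; their versions are not given in the sources used here. Values were scaled to a common trimmed mean, so a shift of all transcripts is not visible. Probe sets with 1 gene symbol in the platform annotation were kept, with symbols updated through RefSeq. Signals were transformed to log2(signal + 16), the dimmest 40% by mean over all arrays were left out (below 11.1), and the 7 groups were fitted with limma 3.58.1 in R 4.3.3 (eBayes with trend, 4 residual degrees of freedom). Benjamini-Hochberg adjustment ran over 24654 probe sets, with a threshold of 0.05. Dim probe sets are quoted from the fit without this filter. The number of arrays limits the precision.

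Every member is reported. From the gene lists, the text names all other family members, PTBP1, PTBP2, SRRM4 and REST, and up to 4 others per list by smallest p over the 3 hours together. Profiles nearest to the 3 most variable members are the 3 closest genes each. The members and lists were chosen with earlier results of these data known. Alternatives were other offsets, normalizations, filters, variance models, 1 probe set per gene, a replicate block and the removal of each array. Letters A and B were checked for pairing: the A minus B differences correlated at -0.03 (24 and 48 hours), 0.04 (24 and 72) and 0.10 (48 and 72). No strong shift shared by a letter across all probe sets was thus seen, and the main fit left the letters out. These correlations cannot tell whether A and B were separate transductions.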

Additional observations from a re-analysis of the deposited data

Results flagged for a closer look

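The difference between arrays labelled shMYCN and control virus was larger at 72 than at 24 hours for 8 probe sets in the interaction test of limma. The change in log2 difference was 1.76 ± 0.24 (SE) for CELF3 215045_at, 1.51 ± 0.19 for RBFOX2 213901_x_at, 1.46 ± 0.22 for CELF5 230497_at and 1.44 for CELF4 223653_x_at. It was 1.23 ± 0.28 for CELF4 238966_at, 1.15 ± 0.26 for ELAVL4 234904_x_at, 0.89 ± 0.17 for ELAVL4 241424_at and 0.57 ± 0.15 for RBFOX2 212104_s_at. Their adjusted p ran from 0.0015 to 0.043. The difference turned from below to above control virus between these hours for RBFOX2 213901_x_at (-0.30 to 1.21), ELAVL4 234904_x_at (-0.32 to 0.82), ELAVL4 241424_at (-0.09 to 0.80) and CELF5 230497_at (-0.09 to 1.37), and none of these 24-hour values was called. Calls were lost on leaving out single arrays for the pair of CELF4, the pair of ELAVL4 and RBFOX2 212104_s_at, whose call was lost in 9 of 18 alternatives.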

How the results depend on the processing

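Single values of members and named genes were compared with the main fit in each alternative, and each value counts once per alternative. Of these comparisons, 5159 stayed on the same side of the threshold, 165 lost the call and 69 gained it. In 1 comparison a called value reversed its direction, namely RBFOX2 213901_x_at over the hours together. This value ran from -0.11 without control virus 72 h to 0.64 without control virus 24 h. With 1 probe set per gene, members called against control virus were 5 over the hours together, 5 at 48 hours and 5 at 72 hours, against 5 for shMYCN against no virus, 6 for 72 against 24 hours and 3 for the interaction; fewer probe sets of members were tested there. All genes called were then 4500 over the hours together, 4034 at 72 hours, 4321 for 72 against 24 hours and 3651 against no virus. The share of all genes called in that run is not given, so the members' counts there are not read as an excess. On leading probe sets in the main fit, limma called 34% of 12678 genes over the hours together. At 72 hours it called 16% of them higher and 13.8% lower. Over the hours together, members called were 9 with the dimmest 60% left out and 8 under an additive model of virus and hour, and all probe sets called were 4871 under that model and 4431 at a threshold of 0.01. Without the dim filter, members called were 5 at 48 hours and 4 for the interaction, and all probe sets called were 20 at 24 hours, 1778 at 48 hours, 675 for the interaction and 0 for control virus against no virus. Without the variance trend, all probe sets called were 10 at 24 hours, 799 for the interaction and 0 for control virus against no virus. Leaving out each array in turn, members called ran from 7 to 17 over the hours together, 0 to 1 at 24 hours, 6 to 8 at 48 hours, 11 to 16 at 72 hours, 11 to 18 for 72 against 24 hours, 4 to 12 for the interaction, 0 throughout for control virus against no virus and 6 to 13 for shMYCN against no virus. All probe sets called ran in the same order from 2786 to 9415, 7 to 561, 2080 to 5607, 4348 to 8517, 3941 to 9155, 529 to 3577, 0 to 31 and 2438 to 7771. With the letter A or B as a replicate block, members called were 14 over the hours together, 8 at 48 hours, 16 at 72 hours and 8 for the interaction, and all probe sets called were 7855, 3306, 6838 and 1844; the block added the call of ELAVL3 1555602_a_at at 72 hours (adjusted p = 0.0253), of CELF1 and PTBP2 at 72 hours and of RBFOX3 over the hours together, and ended that of NOVA2 238904_at for 72 against 24 hours (adjusted p = 0.0509). Median scaling lowered the share of higher calls among all calls from 53.4% to 33.8% for 72 against 24 hours, from 43.1% to 32.5% for the interaction and from 54.0% to 35.6% against no virus. Setting the dim filter on the 5 reference arrays, chosen after seeing the data, left the members' counts at 14 over the hours together, 8 at 48 hours, 15 at 72 hours and 8 for the interaction. The cause of these changes was not tested. Signals near the dim filter, as for NOVA1 and the dim CELF4 probe sets, limit what can be said of them.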
